A study of Mus musculus with 2 samples.

Results

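The epidermal lipoxygenases *Alox8*, *Alox12*, *Alox12b*, *Alox12e* and *Aloxe3* were taken by symbol from a spatial transcriptome of mouse skin, and all 5 were found among 19465 measured genes. The skin came from female SKH-1 mice, a hairless strain, aged 10 to 12 weeks. The 4 groups were skin exposed to ultraviolet radiation (UVR) that received 9-cis HPR at 0.03%, UVR-exposed skin that received retinol at 0.1%, UVR-exposed skin without either agent, and normal control skin. The labels do not spell out HPR, and the UVR dose, the treatment schedule and the number of animals behind a section are not given in the sources used here. Each group was 1 section on a Visium slide, where transcripts are counted as unique molecular identifiers (UMIs) at barcoded spots that each cover several cells. The UVR and control sections shared 1 capture area and both treated sections shared the other, so for treated against UVR skin the treatment and the capture area cannot be told apart.

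Lipoxygenases add oxygen to polyunsaturated fatty acids and leave lipid hydroperoxides. In the epidermis, *Alox12b* and *Aloxe3* encode enzymes that act one after the other on the linoleate of acylceramides, a step needed to bind ceramides to the cornified cell and so to seal the skin barrier. *Alox8* encodes a mouse skin enzyme of arachidonic acid known for its induction by phorbol esters. *Alox12e* encodes the epidermal arachidonate lipoxygenase of mice, and *Alox12* the type first described in platelets.

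All 5 genes lie on chromosome 11 (GRCm38.p6) in 2 groups. *Aloxe3* (ENSMUSG00000020892, 69125417 to 69149115), *Alox12b* (ENSMUSG00000032807, 69157072 to 69169791) and *Alox8* (ENSMUSG00000020891, 69183885 to 69197843) follow each other over 72.4 kb. *Alox12* (ENSMUSG00000000320, 70241457 to 70255380) and *Alox12e* (ENSMUSG00000018907, 70315610 to 70322720) lie 60.2 kb apart, and *Alox15*, another lipoxygenase gene, starts at 70344147. The RefSeq table used here held the promoters of 4 of the 5 genes, and the 250 bases before each start site are printed to set the 2 genes that were higher in treated skin beside their neighbours that were lower. Start sites are those of the promoter table: the *Alox12e* site lies 190 bases and the *Alox12* site 10 bases inside the outer end of the gene given above, so those windows hold bases of the gene itself, while the *Alox8* and *Alox12b* sites are at that end. Capitals mark GGGCGG, the box bound by Sp1, on either strand.
Alox8, higher, chr11:69197844-69198093, minus strand: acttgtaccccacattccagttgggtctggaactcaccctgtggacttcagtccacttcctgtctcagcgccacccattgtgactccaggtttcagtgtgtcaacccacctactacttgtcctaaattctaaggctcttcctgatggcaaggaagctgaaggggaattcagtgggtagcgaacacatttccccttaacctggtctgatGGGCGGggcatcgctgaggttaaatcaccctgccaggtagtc
Alox12b, lower, chr11:69156822-69157071, plus strand: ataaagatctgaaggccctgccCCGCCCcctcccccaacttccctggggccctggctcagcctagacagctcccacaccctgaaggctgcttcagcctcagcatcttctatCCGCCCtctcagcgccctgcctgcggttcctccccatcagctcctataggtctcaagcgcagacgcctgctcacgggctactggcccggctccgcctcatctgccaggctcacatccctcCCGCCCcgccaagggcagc
Alox12e, higher, chr11:70322531-70322780, minus strand: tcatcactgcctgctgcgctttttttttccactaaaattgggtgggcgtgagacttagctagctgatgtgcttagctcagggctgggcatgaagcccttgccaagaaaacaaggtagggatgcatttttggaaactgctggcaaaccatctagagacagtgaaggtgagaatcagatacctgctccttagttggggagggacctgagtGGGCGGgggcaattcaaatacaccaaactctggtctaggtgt
Alox12, lower, chr11:70255371-70255620, minus strand: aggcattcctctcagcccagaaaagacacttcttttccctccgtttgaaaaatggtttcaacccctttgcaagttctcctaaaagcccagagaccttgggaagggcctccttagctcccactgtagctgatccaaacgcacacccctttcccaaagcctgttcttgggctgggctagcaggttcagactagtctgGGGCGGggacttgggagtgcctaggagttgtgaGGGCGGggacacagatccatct

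GGGCGG occurred in all 4 windows, as it did in 32.7% of 32851 mouse promoter windows of the same length. It began 42 bases before the start site in both *Alox8* and *Alox12e*, 55 and 22 bases before it in *Alox12*, and on the reverse strand 228, 139 and 19 bases before it in *Alox12b*. The nuclear receptor half-site AGGTCA, present in 14.0% of all windows, was not found in any of the 4. Its direct repeat with a 5-base gap, the arrangement known for retinoic acid receptors, could therefore not be found either and adds no separate result. Of all windows, 0.00913% held it. The AP-1 motif TGANTCA (6.75% of windows) and TATAAA (12.4%) were not found either. These are matches of letters on both strands within 250 bases, and no other stretch was searched.

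Spots with at least 200 UMIs were summed by section and expressed as CPM, the count divided by the section's total and scaled to 1000000. The sections held 1249928 (HPR), 1414976 (retinol), 2558616 (UVR) and 326095 (control) UMIs, with medians of 653, 982, 1641 and 527 UMIs per kept spot in that order. The control section was the shallowest, and 0 UMIs there still allows 9.20 CPM. With 1 section per group no test between animals was possible. Intervals given with ratios below are exact 95% intervals that cover counting error only, and a ratio of at least 2 was the size rule. The labels name the sections of an area as upper and lower, which was read from the image row; the spot grid runs the other way, and reading it instead exchanges HPR with retinol and UVR with control. Under either reading both treated sections had more *Alox8* and *Alox12e* and less *Alox12* and *Alox12b* than both sections of the other area, although 1 of these differences, *Alox12b* in the HPR section against the control section (ratio 0.768, 0.443 to 1.39), has an interval that includes 1. Counts come from probes, so levels are compared between sections for each gene and not between genes. Whether the probes separate these related genes is not given in the sources used here.

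*Alox8* had 577 UMIs (462 CPM) in HPR-treated skin, 1301 UMIs (919 CPM) in retinol-treated skin, 122 UMIs (47.7 CPM) in UVR skin and 2 UMIs (6.13 CPM) in control skin. The 4 sections were thus widely separated, with both treated sections high. *Alox8* was 9.68-fold higher in HPR-treated than in UVR skin (95% interval 7.95 to 11.9), 19.3-fold higher in retinol-treated than in UVR skin (16.0 to 23.4), and 7.77-fold higher in UVR than in control skin (2.11 to 64.9), where the control value rested on 2 UMIs. HPR-treated skin had 0.502 of the retinol-treated level (0.454 to 0.554), just short of 2-fold lower.

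*Alox12e* had 398 UMIs (318 CPM) in HPR-treated skin, 1577 UMIs (1115 CPM) in retinol-treated skin, 387 UMIs (151 CPM) in UVR skin and 31 UMIs (95.1 CPM) in control skin. Its order was the same as that of *Alox8*, but retinol-treated skin stood further from the rest. *Alox12e* was 2.11-fold higher in HPR-treated than in UVR skin (1.83 to 2.43), 7.37-fold higher in retinol-treated than in UVR skin (6.59 to 8.26) and 1.59-fold higher in UVR than in control skin (1.10 to 2.37). It was 3.50-fold lower in HPR-treated than in retinol-treated skin (3.13 to 3.92). The 2 agents were given at different doses, 0.03% for HPR and 0.1% for retinol, so these values do not compare the compounds at 1 dose.

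*Alox12* had 24 UMIs (19.2 CPM) in HPR-treated skin, 15 UMIs (10.6 CPM) in retinol-treated skin, 226 UMIs (88.3 CPM) in UVR skin and 18 UMIs (55.2 CPM) in control skin. Both treated sections were low. *Alox12* was 4.60-fold lower in HPR-treated than in UVR skin (3.01 to 7.33) and 8.33-fold lower in retinol-treated than in UVR skin (4.95 to 15.1). The sections were also thinned to the control total in a single random draw. The log2 ratio was then -0.93 for HPR over UVR, under 2-fold, and -2.81 for retinol over UVR. A single draw adds counting error of its own, which was not measured, so these values do not show an effect of depth. The UVR section was 1.60 times the control section (0.990 to 2.75), and the HPR section 1.81 times the retinol section (0.912 to 3.71); both intervals include 1.

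*Alox12b* had 53 UMIs (42.4 CPM) in HPR-treated skin, 40 UMIs (28.3 CPM) in retinol-treated skin, 244 UMIs (95.4 CPM) in UVR skin and 18 UMIs (55.2 CPM) in control skin. UVR skin was the highest, and both treated sections were below it. *Alox12b* was 2.25-fold lower in HPR-treated than in UVR skin (1.67 to 3.09) and 3.37-fold lower in retinol-treated than in UVR skin (2.41 to 4.84). In the same single draw to the control total the log2 ratio was -0.28 for HPR over UVR, under 2-fold, and -1.28 for retinol over UVR. The counting error added by the draw was not measured here either, so these values do not show an effect of depth. The UVR level was 1.73 times the control level (1.07 to 2.96), and the HPR level 1.50 times the retinol level (0.976 to 2.32). Its partner in the acylceramide step, *Aloxe3*, was the least counted gene, with 20 UMIs (16.0 CPM) in HPR-treated skin, 24 UMIs (17.0 CPM) in retinol-treated skin, 58 UMIs (22.7 CPM) in UVR skin and 8 UMIs (24.5 CPM) in control skin. No *Aloxe3* ratio reached 2-fold, and all its intervals included 1: 0.706 for HPR over UVR (0.402 to 1.19), 0.748 for retinol over UVR (0.445 to 1.22), 0.943 for HPR over retinol (0.494 to 1.78) and 0.924 for UVR over control (0.439 to 2.24).

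**Figure D1:**
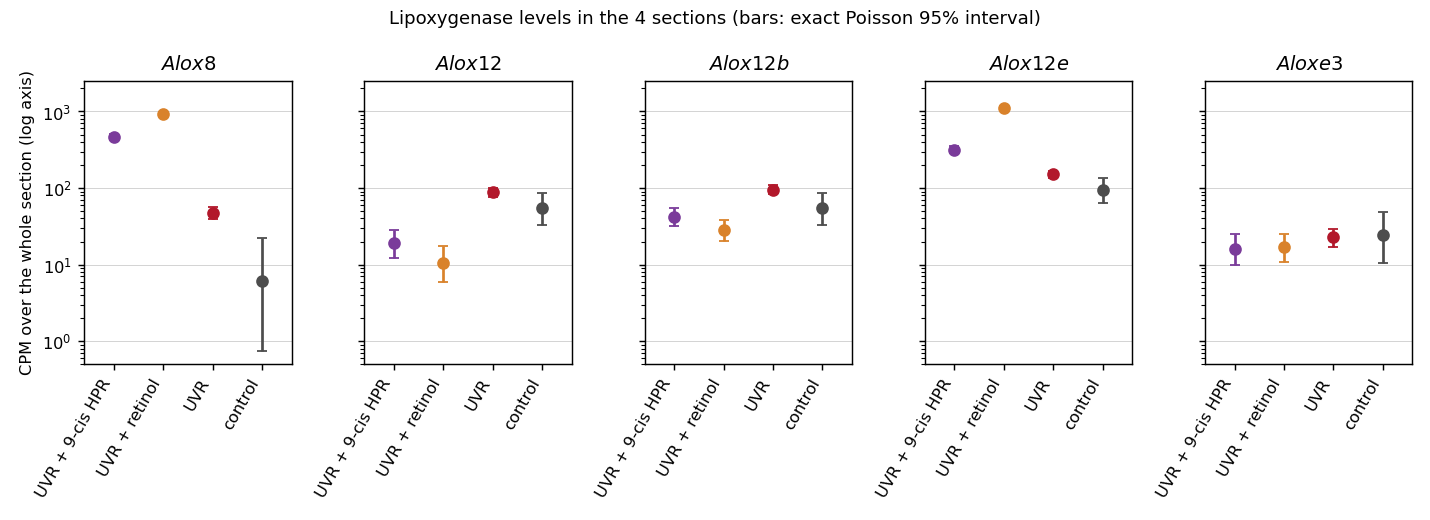
CPM of each gene over the whole section on a log axis, 1 panel per gene, with 1 point per section and an exact Poisson 95% interval. The points for *Alox8* and *Alox12e* are highest in the retinol section (919 and 1115 CPM), those for *Alox12* and *Alox12b* in the UVR section (88.3 and 95.4 CPM), and the *Aloxe3* intervals overlap in all 4 sections.

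Against the background of every gene that had 100 or more UMIs in the pair of sections, 2 of the 5 genes were at least 2-fold higher and 2 lower in HPR-treated than in UVR skin, while 3.41% of 2813 genes were higher and 9.21% lower. The retinol comparison gave the same split of 2 and 2, against 4.23% of 2932 genes higher and 9.11% lower. Both treated sections were set against the same UVR section. In HPR-treated against retinol-treated skin, 1 gene (*Alox12e*) was lower and none higher, against 1.84% and 0.852% of 2231 genes. In UVR against control skin, 1 gene (*Alox8*) was higher and none lower, against 12.4% and 7.61% of 2510 genes. Against control skin, *Alox8* and *Alox12e* were higher and *Alox12* lower in both treated sections; of all genes 7.25% were higher and 7.43% lower in HPR-treated skin, and 11.9% and 8.04% in retinol-treated skin. In the comparisons that include UVR skin, 4 of the 5 genes had 100 UMIs over both sections, *Aloxe3* being the exception, and in HPR against retinol skin and both treated sections against control skin only *Alox8* and *Alox12e* had them, so the *Alox12* call against control skin rests on fewer UMIs than the genes behind those shares.

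Neighbouring genes thus had opposite directions. *Alox12b* and *Alox8*, 14.1 kb apart, were lower and higher in both treated sections, and so were *Alox12* and *Alox12e*. Other genes within 100 kb were counted from 20 UMIs over both sections. In HPR-treated against UVR skin, 2 of 11 were at least 2-fold higher and 3 lower, against 5.93% and 14.4% of all genes with that minimum. In retinol-treated against UVR skin, 2 of 12 were higher and 2 lower, against 6.31% and 13.3%. Calls of at least 2-fold were thus not limited to the lipoxygenases there. The higher ones reached 2.05-fold for HPR and 2.61-fold (*Clec10a*, 13 against 9 UMIs) for retinol, below the *Alox8* ratios. The *Alox12e* ratio was 7.37 for retinol, but its 2.11 for HPR was close to the 2.05 of *Rnasek* and *Cxcl16*. The lowest ratios were 0.318 for HPR (*Aurkb*) and 0.190 for retinol (*Slc16a11*, 2 against 19 UMIs). *Alox15*, next to *Alox12e*, had 2 UMIs in HPR-treated, 1 in retinol-treated, 2 in UVR and 0 in control skin, too few for a ratio.

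The make-up of the group differed accordingly. *Alox8* held 53.8% of the UMIs of the 5 genes in HPR-treated skin (50.8 to 56.8, exact binomial 95% interval), 44.0% in retinol-treated skin (42.2 to 45.8), 11.8% in UVR skin (9.87 to 13.9) and 2.60% in control skin (0.316 to 9.07). *Alox12b* held 4.94%, 1.35%, 23.5% and 23.4% in the same order, and *Alox12* 2.24%, 0.507%, 21.8% and 23.4%. *Alox12e* held 37.1% in HPR-treated, 53.3% in retinol-treated, 37.3% in UVR and 40.3% in control skin. The totals behind these shares were 1072, 2957, 1037 and 77 UMIs. The shares use the probe counts as they are and do not give molecules of one gene against another.

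Tissue position was read from clusters of spots in which these 5 genes played no part. Region 2 was led by cornified genes (*Lce1a2*, *Crct1*, *Hrnr*, *Lor*). Region 1 was led by *Cntfr*, *Cdhr1* and genes of dividing cells (*Ticrr*, *Cenpm*). Together they form the outer layer, and their order in depth was not measured. Regions 3 and 5 were called dermal (*Igkc*, *Col5a2*, *Mpeg1*), region 0 muscle (*Myh1*, *Ckm*) and region 4 sebaceous lipid (*Fa2h*, *Scd1*). The outer name fits region 1 loosely: its median keratinocyte marker was below the other spots (log2 -0.65), although its summed basal markers (*Krt5*, *Krt14* and others) reached 37905 CPM in the HPR, 40341 CPM in the retinol and 67166 CPM in the UVR section. The dermal name fits region 3 loosely too, as its median keratinocyte marker (log2 -0.32) was above that of region 1. The outer layer held 201 spots in HPR-treated, 190 in retinol-treated, 268 in UVR and 66 in control skin, and only 4 of the control spots were of region 1.

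**Figure D2:**
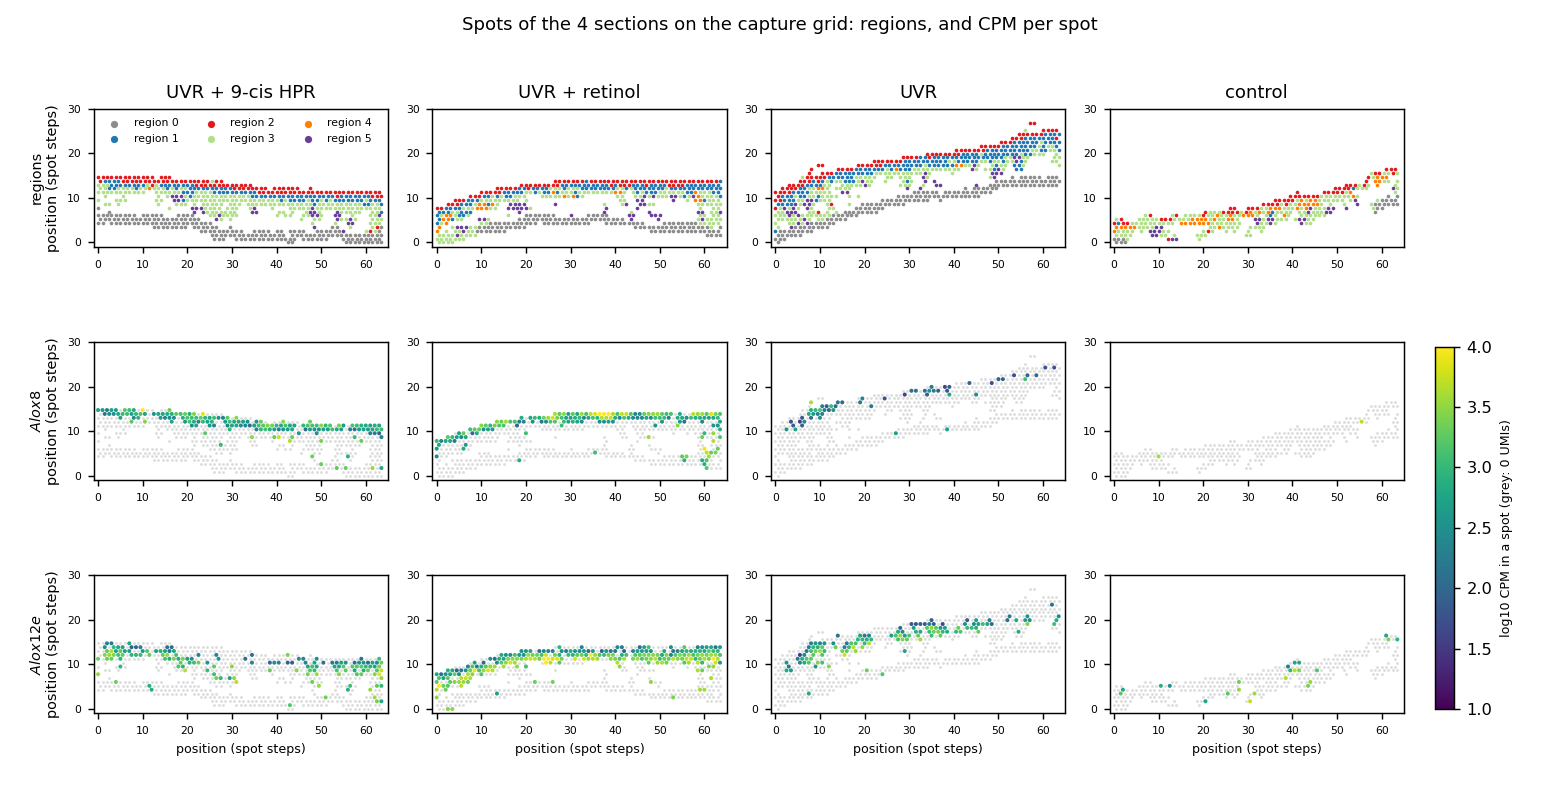
Kept spots of each section on the capture grid, with both axes in spot steps: the regions in the top row, and log10 CPM per spot of *Alox8* and *Alox12e* below, with spots of 0 UMIs in grey. *Alox8* follows the outer edge in both treated sections, and *Alox12e* lies at that edge and next to it.

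In UVR skin, 4 of the 5 genes were concentrated in the outer layer. This layer held 96.7% of the *Alox8* UMIs, 98.2% of *Alox12*, 99.2% of *Alox12b* and 100% of *Aloxe3*, against 82.4% of all UMIs; *Alox12e* had 88.1%. In control skin the outer layer held 43.2% of all UMIs, 88.9% of *Alox12*, 44.4% of *Alox12b*, 25.8% of *Alox12e*, 62.5% of *Aloxe3* and neither *Alox8* UMI. Dermal spots of control skin held many keratinocyte markers too. Granular and cornified markers had 31386 CPM there against 89231 CPM in the control outer layer, and basal markers 19319 against 24772 CPM. Lipoxygenase UMIs outside the control outer layer therefore cannot be read as dermal expression. The ratios between sections were therefore also taken within the outer layer, since the sections differ in how much of each layer they hold.

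*Alox8* in the outer layer had 549 UMIs (568 CPM) in HPR-treated, 1265 UMIs (1087 CPM) in retinol-treated, 118 UMIs (56.0 CPM) in UVR and 0 UMIs in control skin. It was 10.2-fold higher in HPR-treated than in UVR skin (8.31 to 12.5) and 19.4-fold higher in retinol-treated than in UVR skin (16.1 to 23.7). Against control, 3 counts were set as the floor for its summed outer spots. The resulting fold was 26.7 in HPR-treated, 51.0 in retinol-treated and 2.63 in UVR skin. The exact 95% lower limits were 21.6, 41.4 and 2.10 in that order. The whole-section and outer-layer ratios of *Alox8* were close in both treated sections.

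*Alox12e* in the outer layer had 307 UMIs (318 CPM) in HPR-treated, 1356 UMIs (1165 CPM) in retinol-treated, 341 UMIs (162 CPM) in UVR and 8 UMIs (56.8 CPM) in control skin. The HPR to UVR ratio was 1.97 (1.68 to 2.30), just under 2-fold, the retinol to UVR ratio 7.21 (6.40 to 8.14), and the UVR to control ratio 2.85 (1.43 to 6.65), from 8 control UMIs. The last turned round to a log2 ratio of -0.61 when the spots were clustered more finely. It also sets unlike regions side by side, as 62 of 66 control outer spots were of region 2, against 95 of 268 in UVR skin. In region 2 alone, *Alox12e* had 25 UMIs (32.3 CPM, 20.9 to 47.7) in UVR and 8 UMIs (59.9 CPM, 25.8 to 118) in control skin. The UVR level was thus the lower one there, with overlapping Poisson intervals. *Alox12e* was 3.67-fold lower in HPR-treated than in retinol-treated outer layer (3.24 to 4.16).

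*Alox12* in the outer layer had 14 UMIs (14.5 CPM) in HPR-treated, 11 UMIs (9.45 CPM) in retinol-treated, 222 UMIs (105 CPM) in UVR and 16 UMIs (114 CPM) in control skin. It was 7.26-fold lower in HPR-treated than in UVR skin (4.24 to 13.5), 11.1-fold lower in retinol-treated than in UVR skin (6.10 to 22.6), and the UVR to control ratio was 0.927 (0.558 to 1.65). With the outer, dermal and muscle layers given equal weight, the log2 ratio of HPR over UVR fell under 2-fold, to -0.50. UVR and control outer layers did not differ beyond counting error for this gene, and both treated ones were below them. In the treated sections its level in the outer layer was no higher than in muscle spots, where 6 UMIs gave 51.2 CPM in HPR-treated skin and 3 UMIs gave 26.3 CPM in retinol-treated skin, so the few counts left there cannot be told from free or displaced RNA. In UVR skin the muscle level was 6.39 CPM.

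*Alox12b* in the outer layer had 52 UMIs (53.8 CPM) in HPR-treated, 40 UMIs (34.4 CPM) in retinol-treated, 242 UMIs (115 CPM) in UVR and 8 UMIs (56.8 CPM) in control skin. It was 2.13-fold lower in HPR-treated than in UVR skin (1.57 to 2.94), 3.34-fold lower in retinol-treated than in UVR skin (2.38 to 4.79) and 2.02-fold higher in UVR than in control skin (1.01 to 4.73). *Aloxe3* outer levels were 18.6 CPM in HPR-treated, 20.6 CPM in retinol-treated, 27.5 CPM in UVR and 35.5 CPM in control skin, with overlapping intervals. Within the outer layer, 1 gene was higher and 2 lower in HPR-treated than in UVR skin (2.35% and 10.5% of all genes), 2 higher and 2 lower in retinol-treated than in UVR skin (5.12% and 10%), and 3 higher and none lower in UVR than in control skin (20% and 5.89%). The 3 include *Alox12e*, whose level in region 2 alone was lower in UVR than in control skin. In HPR-treated against retinol-treated outer layer, 1 gene (*Alox12e*) was lower and none higher (2.03% and 0.55%). Against control outer layer, 2 genes were higher and 1 lower both in HPR-treated (12.3% and 5.27% of all genes) and in retinol-treated skin (17.8% and 5.1%), where again only *Alox8* and *Alox12e* had 100 UMIs.

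**Figure D3:**
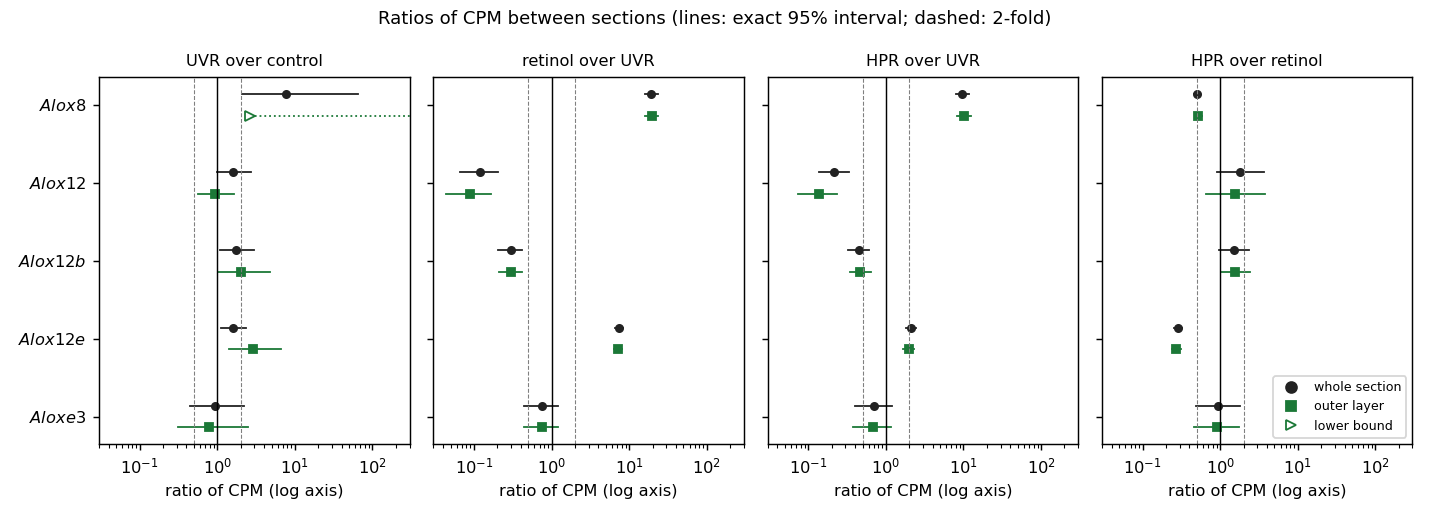
Ratios of CPM on a log axis for the 4 comparisons, with circles for the whole section, squares for the outer layer, lines for exact 95% intervals and dashed lines at 2-fold; the open triangle is a lower bound. *Alox8* and *Alox12e* lie right of 1 and *Alox12* and *Alox12b* left of it in both comparisons with UVR skin, and the *Aloxe3* intervals cross 1 in all 4 panels.

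Markers of the layers also differed between the sections, and their part in these ratios was not tested. Summed over the outer layer, 8 granular and cornified markers had 25412 CPM in HPR-treated, 14770 CPM in retinol-treated, 20475 CPM in UVR and 89231 CPM in control skin, and 6 basal markers had 32415, 35822, 60102 and 24772 CPM in that order. The first sum was mostly *Lor* (22207, 12608, 16289 and 82718 CPM), and *Cdsn* (743, 481, 2498 and 1200 CPM) alone was highest in UVR skin. The basal sum was mostly *Krt5* and *Krt14*, whereas *Krt15* and *Col17a1* were highest in control skin and *Itga6* in retinol-treated skin. The 6 spinous markers had 1310, 1074, 1659 and 10149 CPM. Sebaceous markers over whole sections summed to 51.2, 196, 99.7 and 1159 CPM. Hair follicle markers were at 0 for 6 of 6 genes in the HPR, 4 of 6 in the retinol, 4 of 6 in the UVR and 1 of 6 in the control section. In whole sections a lower level cannot be told apart from fewer cells of a type.

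The 2 outer regions were compared within each section, which removes the difference between capture areas. *Alox8*, *Alox12b* and *Aloxe3* were higher in the cornified-gene region 2, and *Alox12e* in region 1. *Alox8* had 864 CPM in region 2 and 371 CPM in region 1 of HPR-treated skin, a ratio of 2.33 (1.96 to 2.78), 2128 and 558 CPM in retinol-treated skin, a ratio of 3.82 (3.39 to 4.30), and 97.0 and 32.2 CPM in UVR skin, a ratio of 3.01 (2.04 to 4.49). *Alox12b* had ratios of 3.09 (1.68 to 5.87), 4.59 (2.26 to 9.90) and 3.77 (2.86 to 5.02) in the same order of sections. The *Aloxe3* ratios were 7.49 (2.12 to 40.4), resting on 3 UMIs in region 1, 2.32 (0.960 to 5.72) and 2.45 (1.41 to 4.31).

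*Alox12e* ran the other way in all 3 sections. It had 173 CPM in region 2 and 414 CPM in region 1 of HPR-treated skin, 334 and 1589 CPM in retinol-treated skin, and 32.3 and 237 CPM in UVR skin. Region 1 was therefore higher by 2.39-fold (1.82 to 3.18), 4.76-fold (3.97 to 5.74) and 7.32-fold (4.87 to 11.5). *Alox12* was 2.15-fold higher in region 2 of UVR skin (1.63 to 2.82), with 10 against 4 UMIs in HPR-treated and 2 against 9 UMIs in retinol-treated skin. Across all genes with 100 UMIs, 6.66%, 4.91% and 6.55% were at least 2-fold higher in region 2 of the HPR, retinol and UVR sections, and 11.7%, 11.5% and 25.5% lower. The clusters were made from the same spots, so these values describe the regions and are not a test.

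**Figure D4:**
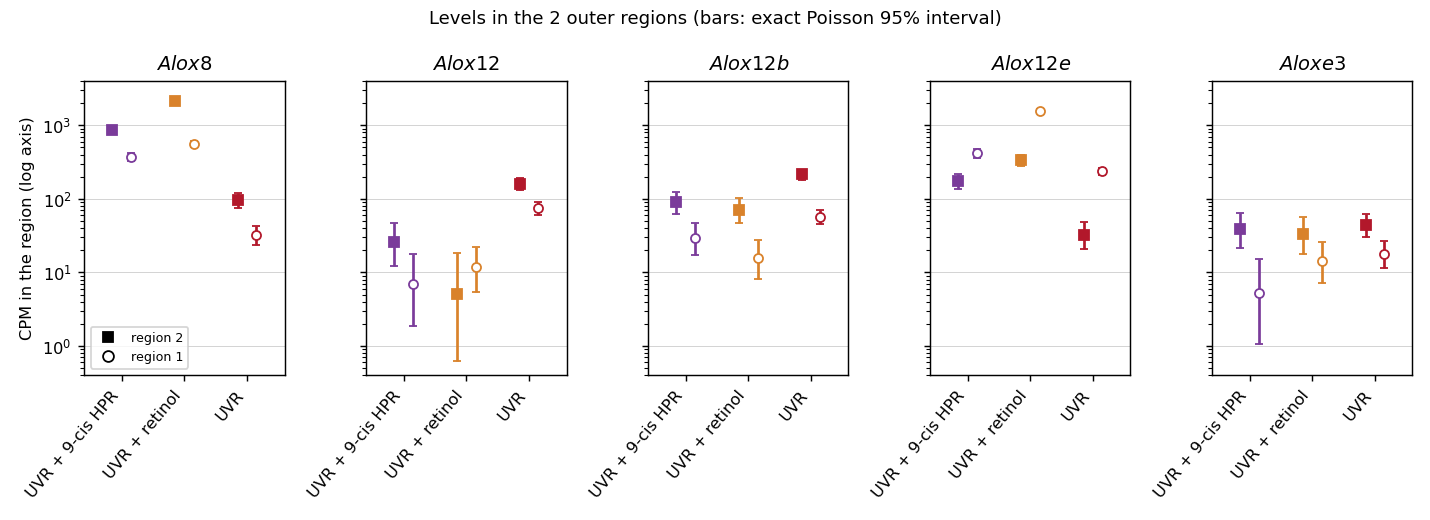
CPM on a log axis in region 2 (filled squares) and region 1 (open circles) of the HPR, retinol and UVR sections, with exact Poisson 95% intervals. The squares are above the circles for *Alox8*, *Alox12b* and *Aloxe3* and below them for *Alox12e* in all 3 sections.

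*Alox12e* was also found outside the outer layer, where distance was counted in any direction. At 1 spot step from the nearest outer spot it had 565 CPM in HPR-treated, 2007 CPM in retinol-treated, 393 CPM in UVR and 143 CPM in control skin, each above the same section's outer layer. The control values rest on 9 UMIs at that step and 8 UMIs in the outer layer (56.8 CPM, 24.5 to 112). *Alox8* at that step had 164, 150, 20.7 and 31.7 CPM, below the outer layer in the first 3 of these sections. In the sebaceous lipid region *Alox12e* had 2562 CPM in retinol-treated skin (1950 to 3305; 59 UMIs in 22 spots), 1048 CPM in UVR skin (453 to 2065; 8 UMIs in 5 spots) and 94.0 CPM in control skin (19.4 to 275; 3 UMIs in 51 spots), and the HPR section had 1 such spot. *Alox8* and *Alox12* had 0 UMIs in this region in every section. The exact 95% upper limits on these zeros were 3693 CPM in HPR-treated, 160 CPM in retinol-treated, 483 CPM in UVR and 116 CPM in control skin. Only for *Alox8* in retinol-treated skin was the limit below the outer-layer level, so the other zeros do not show absence. At 3 or more steps *Alox12e* was at 125 CPM in HPR-treated, 101 CPM in retinol-treated, 9.85 CPM in UVR and 129 CPM in control skin.

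**Figure D5:**
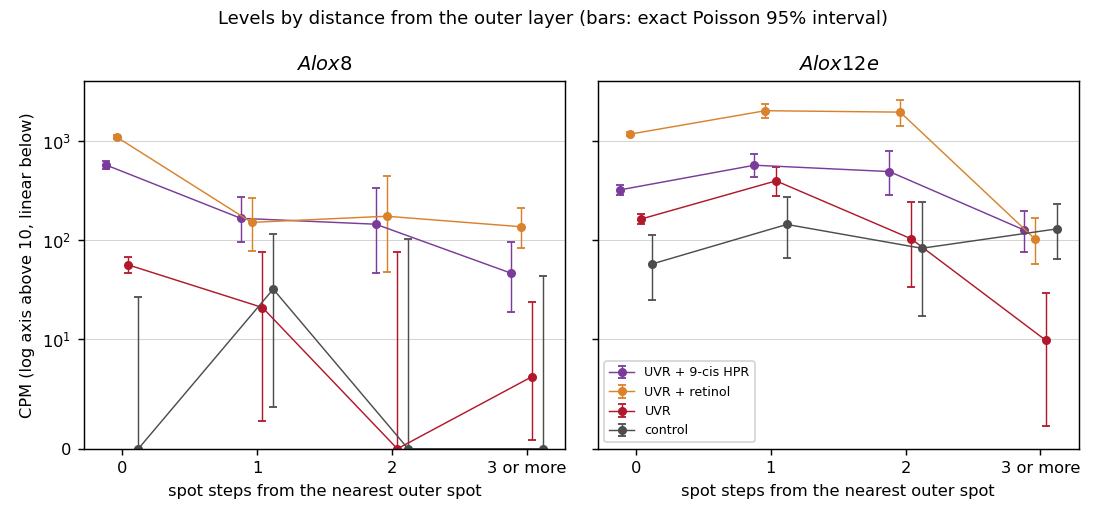
CPM of *Alox8* and *Alox12e* by spot steps from the nearest outer spot, with exact Poisson 95% intervals, on an axis that is logarithmic above 10 and linear below. *Alox8* is highest at step 0 in the HPR, retinol and UVR sections, whereas *Alox12e* in the same sections is higher at step 1 than at step 0.

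The share of outer spots with a UMI showed how widely each gene was spread. *Alox8* was seen in 65.7% of HPR-treated, 71.1% of retinol-treated and 19.8% of UVR outer spots and in 0 of 66 control spots, which allows a share of up to 4.55% at 3 spots of 66 (exact binomial upper limit 5.44%). In muscle spots, where the gene should be lacking, 2.58%, 6.87%, 1.23% and 0% had a UMI in the same order. Median depths were 4135, 5244, 5783 and 1694.5 UMIs in outer spots and 556, 739, 1682 and 1423 UMIs in muscle spots. After thinning every outer spot to 500 UMIs, *Alox8* was seen in 18.8%, 29.3%, 3.11% and 0% of spots. *Alox12e* was seen in 39.3% of HPR-treated, 76.8% of retinol-treated, 33.2% of UVR and 10.6% of control outer spots, and in 12.5%, 31.4%, 9.73% and 0% after thinning.

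*Alox8* was unevenly spread in UVR skin. Its 10 highest spots held 22.4% of the UMIs in HPR-treated, 35.1% in retinol-treated and 53.3% in UVR skin, and the single highest spot held 18, 65 and 17 UMIs. By image side, *Alox8* had 448 CPM left and 477 CPM right in HPR-treated skin, 624 and 1206 CPM in retinol-treated skin and 72.6 and 26.2 CPM in UVR skin. Both sides of both treated sections were above both sides of the UVR section. *Alox12e* had 265 and 375 CPM in HPR-treated skin, 1184 and 1048 CPM in retinol-treated skin and 197 and 112 CPM in UVR skin, so the HPR to UVR ratio was under 2-fold on the left side (log2 0.43) and over it on the right (log2 1.74).

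In outer spots of UVR skin, *Alox12* and *Alox12b* were seen together in 63 of 268 spots, against 33.5 if their spots were unrelated, and *Alox12* and *Alox12e* together in 20, against 33.5. *Alox12b* and *Aloxe3* shared 35 spots, against 15.3. In retinol-treated skin *Alox8* and *Alox12e* were seen together in 96 of 190 spots, against 103.7. These counts depend on spot depth and describe sparse data.

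The genes most like each lipoxygenase were found over the 14 sums of a section and layer with at least 20000 UMIs, among 2381 genes with at least 200 UMIs in all, by Pearson r of log2(CPM + 10). For *Alox8* they were *Stfa3* (r = 0.85), a stefin gene, *Smox* (0.84), the spermine oxidase gene, and *Nf2* (0.82). *Stfa3* had 313 CPM in HPR-treated, 228 CPM in retinol-treated, 73.1 CPM in UVR and 15.3 CPM in control skin, and *Smox* 458, 916, 188 and 76.7 CPM. For *Alox12e* they were *Ubald2* (0.97), *Otud7a* (0.96) and *Zfp451* (0.96), and *Otud7a* had 430, 1036, 313 and 147 CPM in the same order.

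For *Alox12b* the nearest were *Prom2* (0.93), *Asprv1* (0.93), a protease gene of filaggrin processing, and *Krt78* (0.93), and *Aloxe3*, which with 110 UMIs in all was under the minimum for that ranking, had an r of 0.93 too. For *Aloxe3* they were *Flg* (0.94), the filaggrin gene, *Pla2g2f* (0.93), a secreted phospholipase gene, and *Alox12b* itself (0.93). For *Alox12* they were *Nans* (0.77), *Cnfn* (0.74), the cornifelin gene, and *Phlda3* (0.72). *Alox8* and *Alox12b*, the neighbours on the chromosome, had an r of 0.07. The sums share libraries and differ in depth, so these values order the genes and carry no test.

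Other enzymes of the eicosanoid pathway, which release arachidonic acid or turn it into prostaglandins and leukotrienes, were counted from 20 UMIs over both sections. In HPR-treated against UVR skin, 1 of 15 was at least 2-fold higher and 6 lower, with a median log2 ratio of -0.50 against -0.15 over 6373 genes, of which 5.93% were higher and 14.4% lower. In retinol-treated against UVR skin none of 14 was higher and 1 lower, with a median of -0.36 against -0.11 over 6445 genes (6.31% higher, 13.3% lower). The gene lower in both was *Pla2g4d*, a skin cytosolic phospholipase gene, with 26, 16, 118 and 0 UMIs in HPR-treated, retinol-treated, UVR and control skin; its ratios to UVR were 0.451 for HPR and 0.245 for retinol. *Ptges*, the prostaglandin E synthase gene, had 138, 154, 399 and 22 UMIs, with ratios of 0.708 and 0.698 to UVR and 2.31 for UVR over control. *Pla2g2f* had a ratio of 1.97 for HPR over UVR and 1.19 for retinol over UVR.

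In UVR against control skin, 4 of 14 eicosanoid genes were higher and 3 lower, with a median log2 ratio of 0.26 against -0.10 over 5898 genes (12.9% higher, 17.4% lower). *Pla2g4d* was 5.01-fold higher with its 0 control UMIs set to 3 counts. *Pla2g4e* was 3.54-fold higher, and *Pla2g2f* had a ratio of 0.227. The enzymes of leukotriene synthesis were scarce: *Alox5* had 0, 2, 2 and 2 UMIs in HPR-treated, retinol-treated, UVR and control skin, and *Alox5ap*, its helper protein, 17, 6, 13 and 10. In HPR-treated against retinol-treated skin 1 of 9 eicosanoid genes, *Alox5ap*, was higher and none lower (3.79% and 4.54% of 5306 genes).

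The genes around *Alox12b* and *Aloxe3* in acylceramide and envelope synthesis did not all follow them. Of 21 measured, 1 was higher and 3 lower in HPR-treated than in UVR skin (median log2 -0.12, against -0.15 over all genes with 5.93% higher and 14.4% lower). In retinol-treated against UVR skin none was higher and 2 lower (median 0.05, against -0.11 with 6.31% and 13.3%). In UVR against control skin 4 of 20 were higher and 5 lower (median 0.36, against -0.10 with 12.9% and 17.4%). The counts in treated skin were near these shares of all genes. *Elovl1*, a fatty acid elongase gene, was 2.23-fold lower in HPR-treated and 2.38-fold lower in retinol-treated than in UVR skin. *Cyp4f39*, whose product adds the omega-hydroxyl group of acylceramides, had ratios of 0.530 for HPR and 0.651 for retinol over UVR, and was 2.36-fold higher in UVR than in control skin. *Tgm1*, the transglutaminase of the cornified envelope, had ratios of 0.966 and 1.22 to UVR and was 2.98-fold higher in UVR than in control skin. *Elovl4*, which makes the very long chains, was 4.92-fold lower in UVR than in control skin and had a ratio of 1.50 for HPR over UVR.

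Of the lipid and retinoid receptors, 6 were measured in the comparisons with UVR skin, and none was 2-fold higher or lower in either treated section, where the shares of all genes given above (5.93% and 14.4% for HPR, 6.31% and 13.3% for retinol) amount to about 1 gene in a list of that size. *Rarg*, the main epidermal retinoic acid receptor gene, had ratios of 1.67 for HPR and 1.74 for retinol over UVR, and 0.637 for UVR over control. *Ltb4r2*, a receptor for lipoxygenase and cyclooxygenase products, had 1.46 and 1.41 and was 3.33-fold higher in UVR than in control skin. Of 5 listed hydroperoxide reducers, 4 were among the genes of the data, without *Gpx4*, and 3 had enough UMIs. None of these was 2-fold apart in either treated section against UVR skin. In UVR against control skin 1 was higher and 1 lower, against 12.9% and 17.4% of all genes. *Gpx1* had ratios of 0.764 for HPR and 0.845 for retinol over UVR and was 2.71-fold higher in UVR than in control skin, and *Prdx6* had 0.530 and 0.662 to UVR. *Gpx3*, a secreted glutathione peroxidase gene, had 1.43 and 0.697 to UVR and was 2.96-fold lower in UVR than in control skin.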

How the data were processed

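Visium libraries were made with the kit for fixed tissue from fresh-frozen sections, per the labels' protocols. The values deposited by the authors are unnormalized UMI counts; the submitters' processing notes name Space Ranger 2.0.0, Seurat 4.1.0 and the build mm10. Spots were assigned to sections by image row at the gap between tissue pieces, and 2174 of 3175 spots, with at least 200 UMIs each, were kept. The genes, lists and tests were chosen with earlier results of these data known.

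Counts were summed by section or layer and divided by the total. Ratios carry exact Clopper-Pearson 95% intervals, taken from how each gene's UMIs divide between the pair, levels exact Poisson and shares exact binomial ones; all cover counting error only. A sum of 0 UMIs was set to 3 counts, giving a bound. No p-value was computed, since each group is 1 section, and spots did not serve as replicates. The size rule of 2-fold was read over genes with at least 100 UMIs (pathway lists 20) over both sections. Genes without a ratio counted as 0 in list medians, 1 in each of 2 lists for UVR over control.

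Spots of all sections were clustered with scanpy 1.11.5 (2000 variable genes without the 5 genes, the pathway lists and other outcome genes, counts scaled to 10000, 20 components, 15 neighbours, Leiden resolution 0.5), and a region took the layer whose markers had the highest median log2 fold. Doublets do not apply to spots. Named genes were the 5 lipoxygenases, at most 2 at each end of a pathway list among genes with 100 UMIs, and the 3 genes most like each lipoxygenase; *Alox15*, *Alox5* and *Alox5ap* were picked by role or position after values were seen. Promoter sequences and coordinates are from RefSeq (GRCm38.p6), which matched 19106 of 19465 genes by symbol; mm10 is the same assembly. The ratio and call steps were tested on simulated counts. Python 3.11.15, numpy 2.4.6, scipy 1.17.1 and pandas 2.3.3 were used.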

Additional observations from a re-analysis of the deposited data

How the results depend on the processing

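*Alox8*, *Alox12*, *Alox12b* and *Alox12e* each kept their direction in both comparisons of treated with UVR skin under all 12 alternatives besides the spot grid. They also kept it when the sections were read from the spot grid. The alternatives that changed only the gene minimum leave the ratio of each gene as it is. Their agreement was therefore fixed in advance and is no evidence of stability. The log2 ratio of *Alox8* ranged from 2.62 to 4.19 for HPR over UVR and from 3.10 to 5.53 for retinol over UVR, left image side lowest and right highest in both. *Alox12* ranged from -3.20 to -0.50 and from -3.48 to -1.51, *Alox12b* from -1.55 to -0.28 and from -2.03 to -1.12, and *Alox12e* from 0.43 to 1.74 and from 2.55 to 3.51. Reading the sections from the spot grid exchanges the paired sections, so *Alox8* in UVR over control turned to -2.96 and *Alox12e* in HPR over retinol to 1.81 by construction; the 4 genes then had log2 ratios of 7.23, -2.38, -0.97 and 3.55 for HPR over UVR and 6.23, -1.52, -0.38 and 1.74 for retinol over UVR, in the order *Alox8*, *Alox12*, *Alox12b*, *Alox12e*. At Leiden resolution 1 the outer-layer log2 ratio of *Alox12e* in UVR over control turned to -0.61, since the region that holds most of it was then placed in the dermal layer.

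The number of lipoxygenases at least 2-fold apart in HPR over UVR was 4, and 2 after thinning to equal totals, on the left image side and with equal layer weights. In HPR over retinol it was 1, and 2 with all spots over tissue, keratinocyte marker scaling, the right side and equal layer weights, and 3 after thinning and on the left side. In UVR over control it was 1, and 3 in the outer layer and on the left side. Thinning was a single random draw, and equal layer weights covered the outer, dermal and muscle layers only. Over all genes the counts were 355 for HPR over UVR, 391 for retinol over UVR, 60 for HPR over retinol and 503 for UVR over control. In that order they were 120, 133, 21 and 168 after thinning, 1298, 1265, 442 and 1786 with a minimum of 20 UMIs, and 103, 122, 11 and 134 with a minimum of 500, where different numbers of genes were tested. The left side gave 192, 248 and 291 for HPR over UVR, retinol over UVR and UVR over control, the right side 26 for HPR over retinol, and the spot grid 241 for retinol over UVR. Scaling by keratinocyte marker UMIs gave 772 for retinol over UVR. That scaling moved the median of all genes to a log2 ratio of 0.37, 0.58, -0.23 and 0.24 in the same order of comparisons, against -0.13, -0.05, -0.09 and 0.09, and the higher share of the calls to 82.0%, 92.1%, 12.2% and 73.7%, against 27.0%, 31.7%, 31.7% and 62.0%. Median-of-ratios size factors gave 41.4% for HPR over UVR and 58.3% for HPR over retinol. The cause of the other changes was not tested. No paired analysis was possible because each group is 1 section. Low counts limit *Aloxe3* throughout, *Alox12* in treated skin and every gene in the control section.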
